A study of Mus musculus with 18 samples.

Results

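BCL2 family survival and death genes were described across 18 RNA libraries of T cells from mouse bone marrow. The family was taken as 10 genes of the 23930 in the count tables, matched by symbol: the prosurvival genes Bcl2, Bcl2l1 and Mcl1, the effectors Bax and Bak1, and the BH3-only genes Bcl2l11, Bid, Bad, Bbc3 and Pmaip1. All 10 were found, and 9 of them were among the 11316 genes kept by the filter on low counts. Pmaip1, which encodes NOXA, had 0 to 12 reads per library and was left out of every test.

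CD4 and CD8 T cells had been purified by fluorescence-activated sorting from 3 kinds of mice, which gave 6 groups of 3 libraries. The first kind was pMT-10 mice drinking zinc-enriched water for 30 days. The second was pMT-10 mice given control water, and the third was C57BL/6 mice given zinc-enriched water, so the pMT-10 transgene was shared by the first pair and zinc by the first and last. The pMT-10 strain carries an Il10 transgene behind a metallothionein promoter, which zinc induces and which is not specific to T cells. RNA was read with a targeted panel (Ion AmpliSeq) that amplifies 1 short stretch per gene, so levels in CPM (counts scaled to a common library size) are compared between groups for the same gene and never between genes. The labels give neither age nor sex and do not say which CD4 and CD8 libraries came from the same mouse. The p-values measure the spread between these libraries.

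Total counts ran from 10546798 to 18519474 per library, and 1 CPM after TMM scaling stood for 10.2 to 18.9 reads. The 12 libraries of zinc-fed mice shared 1 sequencing chip and the 6 libraries of pMT-10 mice without zinc shared another, so the chip's part and that of zinc cannot be told apart. Ddx3y, a Y-linked gene, stood at 110 to 206 CPM in C57BL/6 libraries and Xist at 527 to 1000 CPM in pMT-10 libraries, so sex differed with strain. The sort was checked with marker genes of the 2 cell types. Summed Cd4 and Zbtb7b lay between 1830 and 3520 CPM in CD4 libraries and between 2.24 and 8.58 CPM in CD8 libraries. Summed Cd8a and Cd8b1 lay between 19.9 and 45.5 CPM in CD4 libraries and between 3510 and 5220 CPM in CD8 libraries. Il10 stood at 16.6 to 26.0 CPM in CD4 cells of zinc-fed pMT-10 mice, 1.40 to 3.63 CPM without zinc and 3.01 to 8.25 CPM in C57BL/6 mice. In CD8 cells it stood at 3.20 to 22.4 CPM in zinc-fed pMT-10 mice and had no reads in either control, where 3 counts, the limit that a count of 0 allows, would be at most 0.293 CPM.

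Proteins of the BCL2 family decide whether the outer mitochondrial membrane stays closed. BAX and BAK form pores in it that release cytochrome c, the prosurvival proteins BCL2, BCL-XL (the product of Bcl2l1) and MCL1 hold them in check, and the BH3-only proteins set them free by binding the prosurvival ones. Resting T cells are known to depend on BCL2 and MCL1, whose levels interleukin-7 and related cytokines sustain, and on BIM (the product of Bcl2l11) for their removal.

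Bcl2, Bcl2l1 and Bak1 were the members whose RNA differed most often between zinc-fed pMT-10 mice and the controls, and the region around the start site of each is shown for that reason. Each window runs from 250 bases before to 50 bases after a RefSeq transcription start of GRCm38.p6, on the strand of the gene. Bcl2 is shown at chr1:106714241-106714540, Bcl2l1 at chr2:152831679-152831978 (the most upstream of 3 starts listed for it) and Bak1 at chr17:27028578-27028877, all on the minus strand. Capitals mark a match to GGGANNNNCC, an NF-kB motif.
Bcl2: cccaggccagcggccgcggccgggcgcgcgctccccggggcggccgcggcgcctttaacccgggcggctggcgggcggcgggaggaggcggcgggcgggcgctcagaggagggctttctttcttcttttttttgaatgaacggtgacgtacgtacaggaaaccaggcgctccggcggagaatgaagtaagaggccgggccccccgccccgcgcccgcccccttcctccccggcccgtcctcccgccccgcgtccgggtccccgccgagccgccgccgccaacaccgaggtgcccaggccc
Bcl2l1: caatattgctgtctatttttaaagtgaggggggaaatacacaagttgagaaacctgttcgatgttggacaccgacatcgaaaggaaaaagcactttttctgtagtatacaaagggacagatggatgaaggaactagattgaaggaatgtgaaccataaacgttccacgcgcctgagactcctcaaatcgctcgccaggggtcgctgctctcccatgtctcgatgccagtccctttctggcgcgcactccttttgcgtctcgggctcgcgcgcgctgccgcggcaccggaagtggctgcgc
Bak1: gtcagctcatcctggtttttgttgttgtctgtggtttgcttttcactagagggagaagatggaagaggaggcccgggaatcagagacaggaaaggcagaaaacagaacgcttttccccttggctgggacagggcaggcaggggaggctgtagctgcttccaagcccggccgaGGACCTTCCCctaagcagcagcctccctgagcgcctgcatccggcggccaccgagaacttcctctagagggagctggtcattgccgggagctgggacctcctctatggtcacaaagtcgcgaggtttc
Motifs were searched on both strands of 15 RefSeq windows for 9 of the members, with Pmaip1 left out of the search. The motifs were GGGANNNNCC (NF-kB, present in 20.7% of 32851 mouse promoters of this length), TTCNNNGAA (STAT, 8.30%) and GTAAACA (forkhead, 3.65%). The window of Bak1 held 1 NF-kB match, 78 bases before the start. The windows of Bcl2, Bcl2l1, Mcl1, Bax, Bid and Bad held none of the 3 motifs. Bbc3, which encodes PUMA, had 3 NF-kB matches at 1 start and a forkhead match at another, and Bcl2l11 had a forkhead match at its first start and an NF-kB match at its second. The Bcl2 window was 76.0% G and C with 44 CpG, the Bak1 window 58.3% with 11 and the Bcl2l1 window 52.3% with 22, against medians of 52.7% and 7 over all promoters. No reading of these libraries bears on binding at these windows, and where the panel's amplicons lie in each gene is not given in the sources used here.

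In CD4 cells, zinc-fed pMT-10 mice had less RNA of the prosurvival genes Bcl2 and Bcl2l1 and more of the effector gene Bak1 than either control. A gene was called when its Benjamini-Hochberg adjusted p in edgeR's quasi-likelihood test over all 11316 genes was under 0.05. Against C57BL/6 mice 3 of 9 members were called, where 18.7% of all genes tested were called (9.29% higher and 9.40% lower). Against pMT-10 mice without zinc 3 of 9 were called again, where 18.8% of all genes were (9.38% higher and 9.40% lower). Both comparisons share the zinc-fed pMT-10 libraries. The members' share was not tested against that of all genes, and the median log2 fold change of the 9 was -0.17 and -0.12 in these comparisons, against -0.05 over all genes in each. The remaining 6 members were called in neither.

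**Figure D1:**
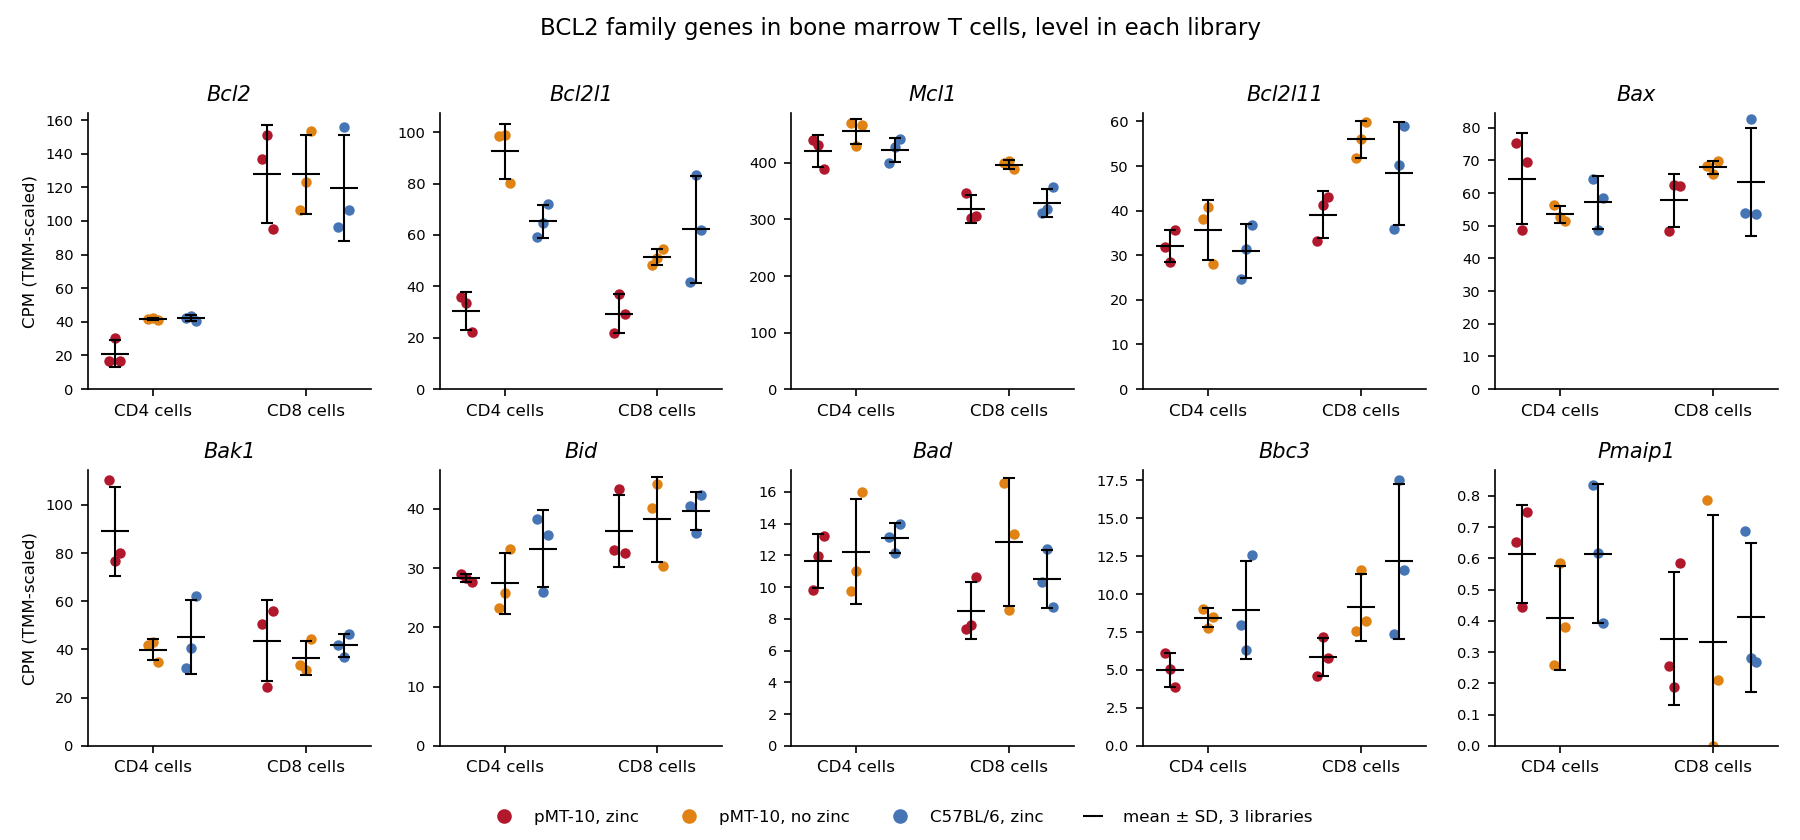
Level of each of the 10 BCL2 family genes in every library, in CPM with TMM-scaled library sizes on axes that start at 0 and differ between genes; points are libraries, bars the mean ± SD of 3. In CD4 cells the zinc-fed pMT-10 libraries lie below all control libraries for Bcl2 and Bcl2l1 and above all of them for Bak1, and Bcl2 is far higher in CD8 than in CD4 cells.

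Bcl2, the founding prosurvival gene of the family (chr1:106538178-106714274, minus strand), stood at 16.5, 30.5 and 16.4 CPM in CD4 cells of zinc-fed pMT-10 mice, against 41.6, 42.6 and 40.9 CPM in the pMT-10 mice without zinc and 42.1, 43.8 and 40.3 CPM in C57BL/6 mice. All 3 zinc-fed pMT-10 libraries lay below all 6 control libraries, and the second of them lay nearest to the controls. How often other genes separate without overlap was not counted, for Bcl2 or for the members below. The fitted log2 fold change was -1.0 ± 0.23 (SE; edgeR adjusted p = 0.00379) over C57BL/6 and -0.99 ± 0.23 (edgeR adjusted p = 0.00394) over pMT-10 without zinc. Among CD8 libraries Bcl2 stood at 137, 151 and 95.4 CPM in zinc-fed pMT-10 mice, against 107, 123 and 153 CPM without zinc and 96.6, 156 and 107 CPM in C57BL/6 mice. These 3 groups overlapped throughout and Bcl2 was called in neither CD8 comparison (edgeR adjusted p of 0.849 over C57BL/6).

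Whether the Bcl2 difference was the same in both cell types was tested as an interaction, in which 5.49% of all genes were called for the comparison with C57BL/6 and 3.78% for that with pMT-10 without zinc. The CD8 difference minus the CD4 difference was 1.10 ± 0.32 on the log2 scale over C57BL/6 (edgeR adjusted p = 0.0469), which made Bcl2 the 1 member of 9 called. That call was lost without any one of 9 of the 12 libraries in the contrast, the exceptions being C57BL/6 CD8 replicate 2, zinc-fed pMT-10 CD4 replicate 2 and zinc-fed pMT-10 CD8 replicate 3; the difference then ranged from 0.94 to 1.45 over all 12 omissions, with adjusted p up to 0.149. Over pMT-10 without zinc it was 0.99 ± 0.32 and missed the threshold (edgeR adjusted p = 0.0848). No member was called in that second interaction by edgeR, where 3 had an unadjusted p under 0.05, DESeq2 called 1 and limma-voom called 0.

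Bcl2l1, which encodes BCL-XL (chr2:152780668-152831728, minus strand), was lower in zinc-fed pMT-10 mice in both cell types. In CD4 cells it stood at 36.0, 33.4 and 22.0 CPM in zinc-fed pMT-10 mice, against 98.4, 99.1 and 80.1 CPM without zinc and 59.1, 64.5 and 72.1 CPM in C57BL/6 mice. In CD8 cells it stood at 21.8, 37.2 and 29.2 CPM in zinc-fed pMT-10 mice, against 48.2, 51.0 and 54.5 CPM without zinc and 41.6, 83.4 and 61.8 CPM in C57BL/6 mice. In each cell type all 3 zinc-fed pMT-10 libraries lay below all 6 control libraries.

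The log2 fold change of Bcl2l1 in CD4 cells was -1.60 ± 0.23 over pMT-10 without zinc (edgeR adjusted p = 3.76e-05) and -1.10 ± 0.23 over C57BL/6 (edgeR adjusted p = 0.00156). In CD8 cells it was -1.08 ± 0.23 over C57BL/6 (edgeR adjusted p = 0.00386), where 8.81% of all genes were called (5.68% higher and 3.13% lower). Over pMT-10 without zinc it was -0.80 ± 0.23 in CD8 cells (edgeR adjusted p = 0.0323), where 7.74% were called (5.10% higher and 2.64% lower). Bcl2l1 was the 1 member of 9 called in each CD8 comparison, a share near that of all genes. The last call rested on nearly every library: leaving out zinc-fed pMT-10 CD8 replicate 1 gave an adjusted p of 0.154 and replicate 3 gave 0.0918, and leaving out pMT-10 without zinc replicates 1, 2 and 3 gave 0.0577, 0.06 and 0.0967. Among the CD4 controls Bcl2l1 was higher in all 3 pMT-10 libraries without zinc than in all 3 C57BL/6 libraries, with an edgeR adjusted p of 1. The CD8 and CD4 differences of Bcl2l1 were not told apart over C57BL/6 (0.02 ± 0.32, edgeR adjusted p = 0.997) or over pMT-10 without zinc (0.80 ± 0.32, edgeR adjusted p = 0.172).

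Mcl1, the third prosurvival gene, whose protein turns over quickly, was called in none of the 4 comparisons with a control. In CD4 cells it stood at 441, 432 and 389 CPM in zinc-fed pMT-10 mice, against 471, 431 and 467 CPM without zinc and 400.3, 428 and 442 CPM in C57BL/6 mice, and the 3 groups overlapped. In CD8 cells it stood at 346, 303 and 307 CPM in zinc-fed pMT-10 mice, against 399, 403 and 389 CPM without zinc and 312, 319 and 358 CPM in C57BL/6 mice. The zinc-fed pMT-10 CD8 libraries lay below all 3 libraries without zinc, with a log2 fold change of -0.32 ± 0.11 that missed the threshold (edgeR adjusted p = 0.0754; DESeq2 adjusted p = 0.0245).

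**Figure D2:**
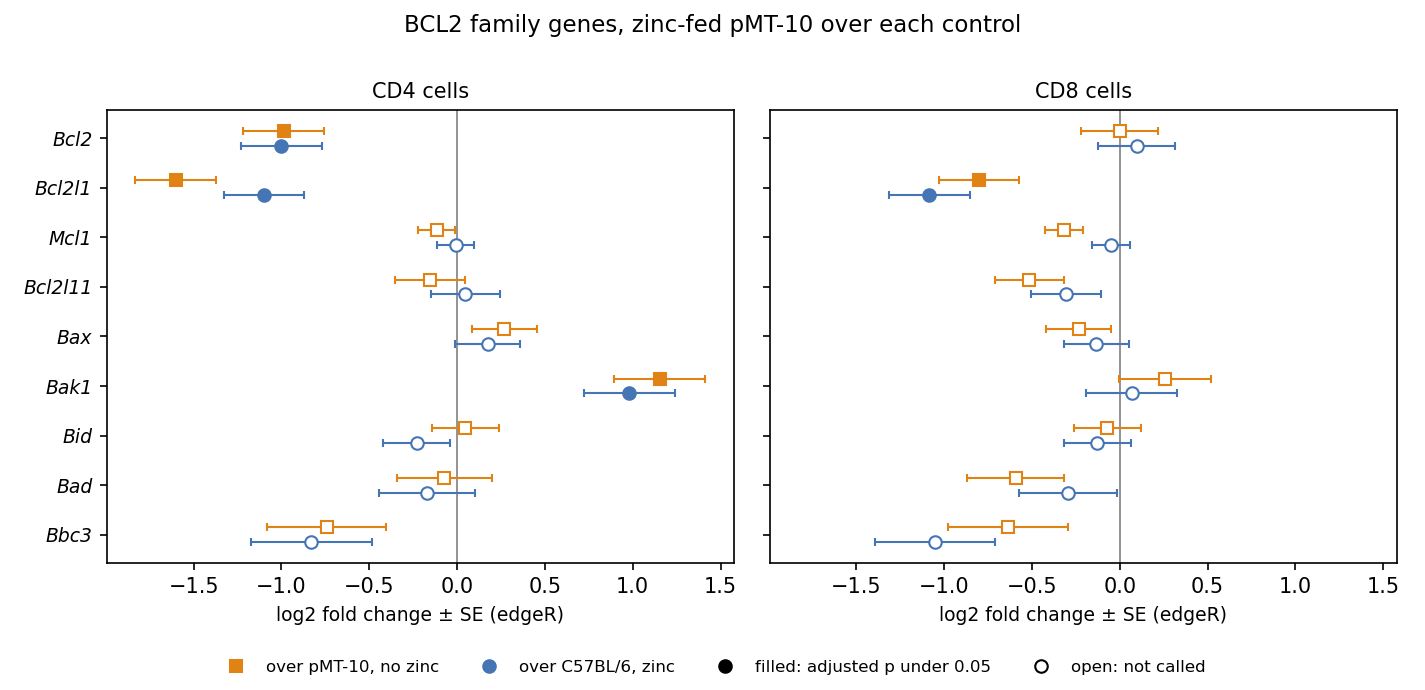
Log2 fold change (x axis) with its standard error for the 9 tested members in CD4 (left) and CD8 cells (right), zinc-fed pMT-10 over pMT-10 without zinc (squares) and over C57BL/6 (circles). Filled symbols, those with an edgeR adjusted p under 0.05, are Bcl2, Bcl2l1 and Bak1 in CD4 cells and Bcl2l1 in CD8 cells.

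Of the effectors, Bak1 rose in CD4 cells and Bax was called nowhere. Bak1 (chr17:27019810-27029009, minus strand) stood at 110.1, 76.7 and 80.0 CPM in CD4 cells of zinc-fed pMT-10 mice, against 41.9, 43.1 and 34.9 CPM without zinc and 32.4, 40.7 and 62.4 CPM in C57BL/6 mice. All 3 zinc-fed pMT-10 libraries lay above all 6 controls, and C57BL/6 replicate 3 was the highest control. Its log2 fold change was 1.16 ± 0.26 over pMT-10 without zinc (edgeR adjusted p = 0.00296) and 0.98 ± 0.26 over C57BL/6 (edgeR adjusted p = 0.0101). The call over C57BL/6 was lost without zinc-fed pMT-10 replicate 1 (adjusted p = 0.0721) and without C57BL/6 replicate 1 (0.0708) or 2 (0.0505), with log2 fold changes of 0.80, 0.79 and 0.91.

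In CD8 cells Bak1 stood at 50.7, 24.5 and 55.8 CPM in zinc-fed pMT-10 mice, against 33.6, 31.4 and 44.5 CPM without zinc and 41.7, 36.9 and 46.5 CPM in C57BL/6 mice. The zinc-fed pMT-10 libraries held both the lowest and the highest of these 9 values. The CD8 minus CD4 difference for Bak1 was -0.91 ± 0.37 over C57BL/6 and -0.90 ± 0.37 over pMT-10 without zinc, and neither passed the threshold (edgeR adjusted p of 0.152 and 0.179). Bax ranged from 48.7 to 75.2 CPM in CD4 cells and 48.4 to 62.5 CPM among CD8 libraries of zinc-fed pMT-10 mice, against 51.4 to 56.5 and 65.8 to 69.8 CPM without zinc and 48.6 to 64.4 and 53.7 to 82.6 CPM in C57BL/6 mice. Its lowest edgeR adjusted p in the 4 comparisons was 0.342, though the zinc-fed pMT-10 CD8 libraries all lay below the 3 libraries without zinc. In the GENCODE annotation of GRCm38, Bak1 overlaps Ggnbp1 on the other strand and Bax overlaps Gm45808 on the same strand. Bcl2 overlaps D630008O14Rik, Bid overlaps Bcl2l13 and Bad overlaps Gpr137, each on the other strand. Reads of such pairs cannot be told apart here.

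Among the tested members, no BH3-only gene was called in any of the 4 comparisons by edgeR. At an unadjusted p under 0.05 Bbc3 stood in 3 of them, and Bcl2l11 and Bad in 1, the CD8 comparison with pMT-10 without zinc. DESeq2 called Bbc3 in CD8 cells over C57BL/6. Bbc3, a p53 target whose protein binds every prosurvival member, stood at 4.61, 7.15 and 5.78 CPM among CD8 libraries of zinc-fed pMT-10 mice, against 7.54, 11.6 and 8.21 CPM without zinc and 7.38, 17.5 and 11.6 CPM in C57BL/6 mice. In CD4 cells it stood at 6.14, 5.05 and 3.9 CPM in zinc-fed pMT-10 mice, against 9.04, 7.79 and 8.46 CPM without zinc and 7.98, 6.33 and 12.6 CPM in C57BL/6 mice. In both cell types the zinc-fed pMT-10 libraries lay below all controls, on 52 to 94 reads per zinc-fed pMT-10 library. How many of all genes separate in this way was not counted. Its log2 fold change in CD8 cells over C57BL/6 was -1.05 ± 0.34 with an edgeR adjusted p of 0.0582, which passed without C57BL/6 CD8 replicate 1 (0.0249) and in DESeq2 (adjusted p = 0.0379). In the other 3 comparisons its log2 fold change was between -0.83 and -0.64, with edgeR adjusted p of 0.100 to 0.301.

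Bcl2l11, whose product BIM is the main killer of T cells deprived of cytokines, stood at 31.9, 28.5 and 35.6 CPM in CD4 cells of zinc-fed pMT-10 mice, against 38.1, 40.7 and 28.1 CPM without zinc and 24.8, 31.4 and 36.8 CPM in C57BL/6 mice. These groups overlapped. In CD8 cells it stood at 33.1, 41.3 and 43.0 CPM in zinc-fed pMT-10 mice, against 51.8, 56.1 and 60.0 CPM without zinc and 36.0, 50.2 and 58.9 CPM in C57BL/6 mice. The zinc-fed pMT-10 CD8 libraries lay below all libraries without zinc and overlapped those of C57BL/6 mice, with edgeR adjusted p of 0.122 and 0.384. Bid, which caspase-8 cleaves to link death receptors to mitochondria, ranged from 27.6 to 43.3 CPM in zinc-fed pMT-10 mice, 23.3 to 44.2 CPM without zinc and 25.9 to 42.3 CPM in C57BL/6 mice over both cell types. Bad, whose protein is held inactive by survival kinases, ranged from 7.34 to 13.2 CPM in zinc-fed pMT-10 mice, 8.59 to 16.6 CPM without zinc and 8.77 to 14 CPM in C57BL/6 mice. The lowest edgeR adjusted p in the 4 comparisons was 0.445 for Bid and 0.217 for Bad.

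Between the control groups, pMT-10 without zinc and C57BL/6 with zinc, edgeR called 0 of 9 members in either cell type, as did DESeq2 and limma-voom. At an unadjusted p under 0.05 there was 1 member in each: Bcl2l1 in CD4 cells (92.5 ± 10.8 CPM without zinc and 65.3 ± 6.53 CPM in C57BL/6; SD, n = 3 each) and Mcl1 in CD8 cells (397 ± 7.36 and 330 ± 24.9 CPM in the same order). Of all genes 0.141% were called in CD4 and 0.0972% in CD8 cells in this comparison.

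CD8 cells differed from CD4 cells most in Bcl2, in all 3 kinds of mice. Bcl2 averaged 128 ± 29.0 CPM in CD8 and 21.1 ± 8.11 CPM in CD4 cells of zinc-fed pMT-10 mice, 128 ± 23.7 and 41.7 ± 0.83 CPM in the pMT-10 mice without zinc, and 120 ± 31.7 and 42.1 ± 1.73 CPM in C57BL/6 mice (SD, n = 3 each). The log2 difference was 2.60 ± 0.24, 1.62 ± 0.23 and 1.51 ± 0.23 (SE; edgeR adjusted p of 7.01e-08, 1.64e-05 and 4.14e-05). In each kind of mouse 3 of 9 members were called, where 28.1%, 21.7% and 22.2% of all genes were called.

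Beside Bcl2, 2 further members were called between the cell types in each kind of mouse. In zinc-fed pMT-10 mice Mcl1 was lower in CD8 cells by a log2 difference of -0.40 ± 0.11 (edgeR adjusted p = 0.00755) and Bak1 by -1.03 ± 0.26 (edgeR adjusted p = 0.00517). In pMT-10 mice without zinc Bcl2l1 was lower in CD8 cells, at -0.85 ± 0.22 (edgeR adjusted p = 0.00843), and Bcl2l11 was higher, at 0.65 ± 0.20 (edgeR adjusted p = 0.0205). The last call was lost without CD4 replicate 3 (0.107) or CD8 replicate 3 (0.0655). In C57BL/6 mice Mcl1 was lower in CD8 cells, at -0.36 ± 0.11 (edgeR adjusted p = 0.0186), and Bcl2l11 higher, at 0.64 ± 0.20 (edgeR adjusted p = 0.0229). Each of these C57BL/6 calls was lost on leaving out any of 4 of the 6 libraries, with adjusted p up to 0.0692 for Mcl1 (without CD8 replicates 1 or 2, or CD4 replicates 2 or 3) and 0.135 for Bcl2l11 (without CD4 replicates 1 or 2, or CD8 replicates 2 or 3).

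Because each gene has its own amplicon, the balance between members was followed as the difference of their log2 CPM within a library and read only as a change between groups. Bcl2l1 minus Bcl2l11 in CD4 cells averaged -0.10 ± 0.51 in zinc-fed pMT-10 mice, against 1.39 ± 0.12 without zinc and 1.08 ± 0.15 in C57BL/6 mice (SD, n = 3 each). The highest zinc-fed pMT-10 library, at 0.23, lay below the lowest control, at 0.97. Bcl2 minus Bcl2l11 in CD4 cells averaged -0.66 ± 0.65 in zinc-fed pMT-10 mice, with 1 library at 0.10 inside the range of the controls, against 0.24 ± 0.26 without zinc and 0.46 ± 0.32 in C57BL/6 mice. Bax minus Bcl2 in CD4 cells averaged 1.64 ± 0.84 in zinc-fed pMT-10 mice, against 0.36 ± 0.07 without zinc and 0.43 ± 0.25 in C57BL/6 mice. The lowest zinc-fed pMT-10 library, at 0.67, lay above the highest control, at 0.61, and the controls overlapped each other. Mcl1 minus Bcl2l11 averaged 3.71 ± 0.24 in CD4 cells of zinc-fed pMT-10 mice, against 3.69 ± 0.33 without zinc and 3.78 ± 0.22 in C57BL/6 mice. These differences restate the levels above and were given no test.

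**Figure D3:**
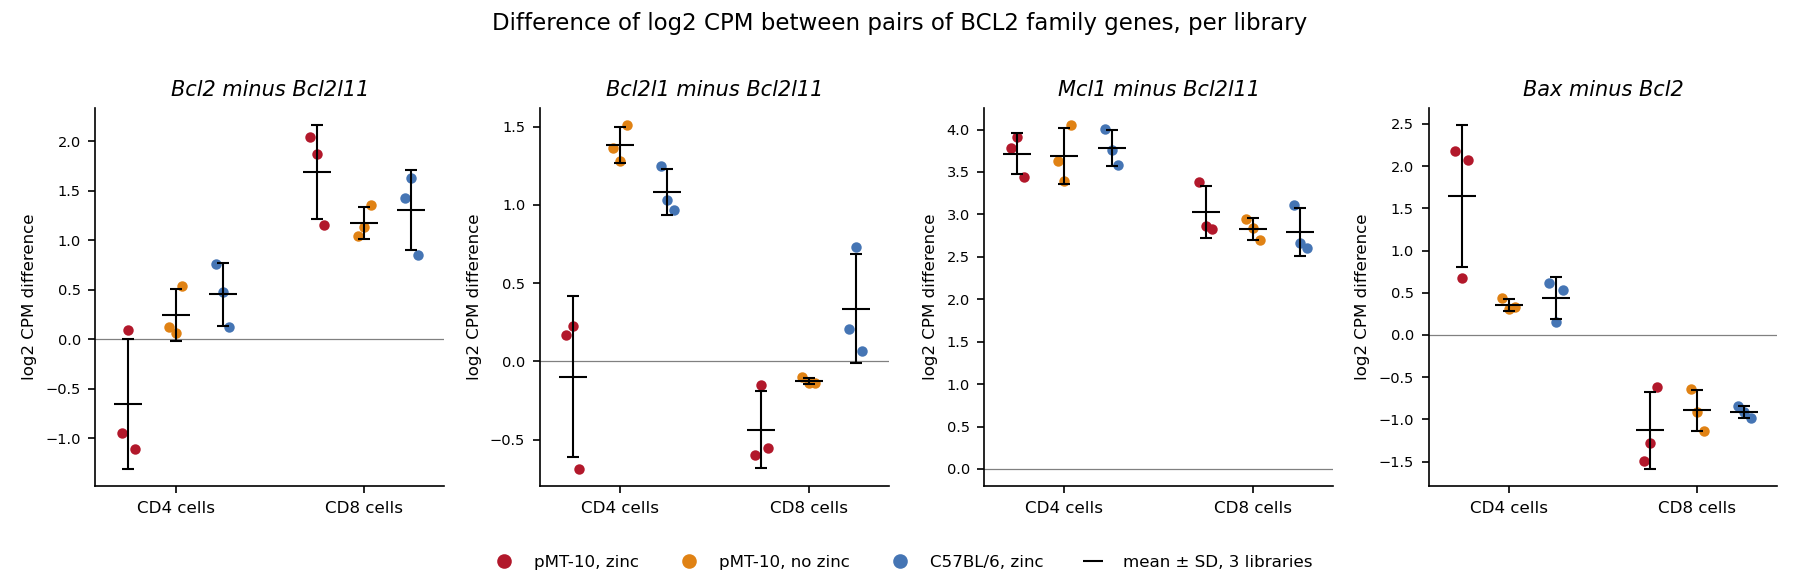
Difference of log2 CPM between pairs of members in every library (y axis), by cell type and kind of mouse, with mean ± SD of 3. In CD4 cells the zinc-fed pMT-10 libraries stand apart from both controls for Bcl2l1 minus Bcl2l11 and for Bax minus Bcl2, and the 3 groups overlap for Mcl1 minus Bcl2l11.

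In CD8 cells Bcl2l1 minus Bcl2l11 averaged -0.44 ± 0.25 in zinc-fed pMT-10 mice, against -0.13 ± 0.02 without zinc and 0.34 ± 0.35 in C57BL/6 mice, and the groups did not overlap. Bcl2 minus Bcl2l11 averaged 1.69 ± 0.47 in zinc-fed pMT-10 mice, against 1.18 ± 0.16 without zinc and 1.30 ± 0.40 in C57BL/6 mice, with overlap. Bax minus Bcl2 averaged -1.13 ± 0.46 in zinc-fed pMT-10 mice, against -0.90 ± 0.25 without zinc and -0.91 ± 0.07 in C57BL/6 mice, with overlap.

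Likeness to Bcl2, Bcl2l1 and Bak1, the members with calls of one sign over each control, was measured as Pearson's r of log2 CPM over libraries and is a description. Libraries of a group share their mouse type, cell type and chip, so r mostly follows the group means. Over the 9 CD4 libraries Bcl2 was most like Gpr34 (r = 0.997), Ifngr2 (0.997), a chain of the interferon-gamma receptor, and Il6ra (0.995), the interleukin-6 receptor chain, with Spearman's rho of 0.967, 0.850 and 0.817. Bcl2l1 was most like Klra9, Donson and Itgb1 in those libraries (r of 0.977, 0.974 and 0.973; rho of 0.933, 0.950 and 0.967). Bak1 was most like Dbnl, Clic1 and Cdc20 (r of 0.993, 0.992 and 0.991; rho of 0.933 each). Over the 9 CD8 libraries the genes most like Bcl2l1 were Dgcr6, Tecr and Chtf8 (r of 0.983, 0.971 and 0.971; rho of 1.000, 0.983 and 0.967), and those most like Bak1 were Ptpn7, Tln1 and Lta4h (r of 0.949, 0.937 and 0.923). For Bcl2, whose CD8 groups overlapped, the highest r was 0.904. Among the members themselves Bcl2l1 followed Bbc3 in both cell types (r = 0.822 in CD4 and 0.941 in CD8 libraries), and Bcl2 ran against Bak1 in CD4 libraries (r = -0.855).

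The rest of the family and the steps on either side of it were counted from 7 lists. Over C57BL/6, 9.29% of all genes tested were called higher and 9.40% lower in CD4 cells, and 5.68% and 3.13% in CD8 cells. Over pMT-10 without zinc these shares were 9.38% and 9.40% in CD4 cells, and 5.10% and 2.64% in CD8 cells. No count of a list, here or below, was tested against these shares. Of 15 further BCL2 family genes listed, 7 were found in the count tables and 4 were tested, so most of the list was not examined. Among these 4, Bik, a BH3-only gene, was higher in zinc-fed pMT-10 mice in all 4 comparisons. It averaged 19.6 ± 2.77 CPM in CD4 cells of zinc-fed pMT-10 mice, against 7.0 ± 2.76 without zinc and 6.71 ± 2.03 in C57BL/6 mice, and 11.6 ± 3.24 against 3.88 ± 0.96 and 4.68 ± 1.04 CPM in CD8 cells (SD, n = 3 each). Its log2 fold change over C57BL/6 was 1.55 ± 0.33 in CD4 and 1.32 ± 0.34 in CD8 cells (edgeR adjusted p of 0.0021 and 0.017), and the CD8 call was lost without C57BL/6 replicate 3 (0.0889) or zinc-fed pMT-10 replicate 2 (0.0639) or 3 (0.0511). Bmf, a BH3-only gene whose protein is tethered to the cytoskeleton, went the other way in CD4 cells, at 2.61 ± 1.72 CPM in zinc-fed pMT-10 mice, against 10.3 ± 1.53 without zinc and 15.1 ± 3.24 in C57BL/6 mice (log2 fold change over C57BL/6 of -2.54 ± 0.44, edgeR adjusted p = 0.000263). Bcl2l13, which overlaps Bid on the other strand, was higher in CD4 cells by a log2 fold change of 0.52 ± 0.15 over C57BL/6 (edgeR adjusted p = 0.019; 0.0802, 0.0775 and 0.067 without C57BL/6 replicates 1 or 2 or zinc-fed pMT-10 replicate 3).

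Of 15 genes of mitochondrial apoptosis (caspases, their regulators and mitochondrial proteins), 3 were higher and 0 lower over C57BL/6 in each cell type. Over pMT-10 without zinc 4 were higher in CD4 and 3 in CD8 cells, again with 0 lower. The 4 in CD4 cells included a gene of an outer-membrane channel, which is not part of the caspase machinery. At an unadjusted p under 0.05, 0 to 1 were lower in each of these 4 comparisons. Apaf1, the scaffold that cytochrome c assembles into the apoptosome, averaged 182 ± 16.2 CPM in CD4 cells of zinc-fed pMT-10 mice, against 68.8 ± 9.76 without zinc and 72.8 ± 7.34 in C57BL/6 mice. Its log2 fold change was 1.32 ± 0.16 in CD4 and 1.04 ± 0.16 in CD8 cells over C57BL/6 (edgeR adjusted p of 6.83e-06 and 0.000249). In CD8 cells over pMT-10 without zinc it was 0.60 ± 0.16 (edgeR adjusted p = 0.0247), a call lost without zinc-fed pMT-10 replicate 1 (0.0794) or 3 (0.0958) or the control's replicate 2 (0.106) or 3 (0.0665). The list's median log2 fold change was 0.18 in CD4 and -0.10 in CD8 cells over C57BL/6.

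**Figure D4:**
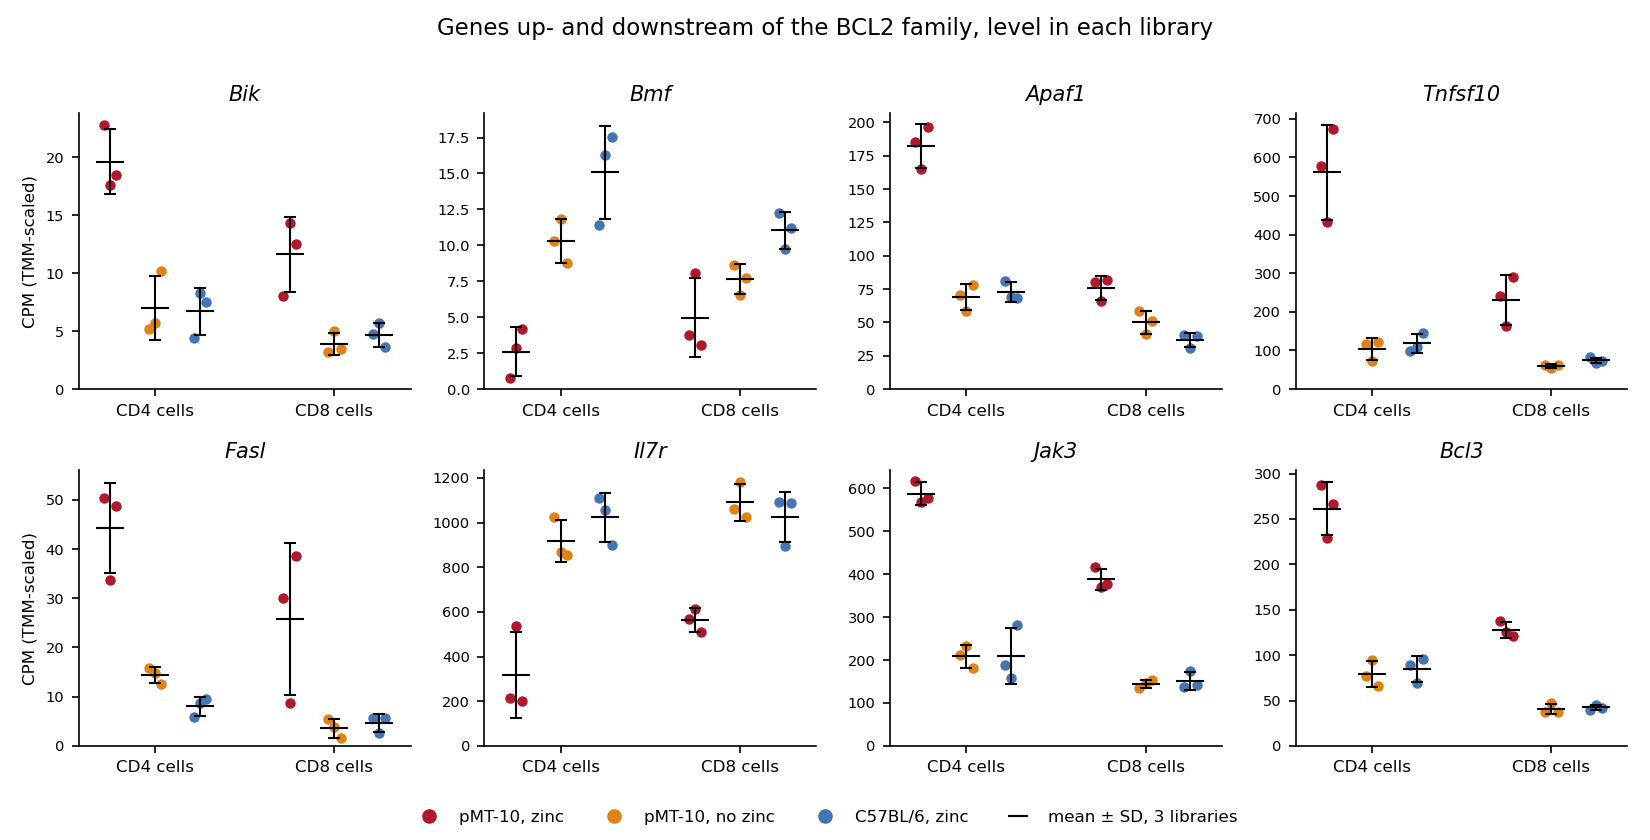
Level of 8 genes around the family in every library, in CPM with TMM-scaled library sizes on axes that start at 0, with mean ± SD of 3: the BH3-only genes Bik and Bmf, Apaf1 of the caspase machinery, the death ligand genes Tnfsf10 and Fasl, the receptor gene Il7r, the kinase gene Jak3 and the transcriptional regulator Bcl3. Zinc-fed pMT-10 libraries are above both controls in both cell types for Bik, Apaf1, Tnfsf10, Fasl, Jak3 and Bcl3 and below both for Il7r.

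Upstream, 4 of 12 death receptor genes were higher and 0 lower over C57BL/6 in both CD4 and CD8 cells, with 0 and 1 lower at an unadjusted p under 0.05. Over pMT-10 without zinc 5 were higher and 1 lower in CD4 cells and 3 higher and 0 lower in CD8 cells. The lower one was Tnfrsf10b, a receptor of the ligand TRAIL (log2 fold change of -1.38 ± 0.36, edgeR adjusted p = 0.00821). It was not called over C57BL/6 in CD4 cells (edgeR adjusted p = 0.281) or over either control in CD8 cells. Tnfsf10, which encodes the death ligand TRAIL, averaged 561 ± 122 CPM in CD4 cells of zinc-fed pMT-10 mice, against 104 ± 28.0 without zinc and 118 ± 24.7 in C57BL/6 mice (log2 fold change over C57BL/6 of 2.25 ± 0.22, edgeR adjusted p = 6.63e-07). In CD8 cells Tnfsf10 averaged 231 ± 64.2 CPM in zinc-fed pMT-10 mice, against 59.9 ± 4.75 and 74.7 ± 7.04 CPM. Fasl, which encodes the ligand of FAS, averaged 44.3 ± 9.15 CPM in CD4 and 25.8 ± 15.4 CPM among CD8 libraries of zinc-fed pMT-10 mice, against 14.4 ± 1.62 and 3.57 ± 1.93 without zinc and 8.03 ± 1.98 and 4.66 ± 1.77 in C57BL/6 mice. The list's median log2 fold change over C57BL/6 was 0.37 in CD4 and 0.18 in CD8 cells.

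Genes of p53 signalling, which acts on Bax, Bbc3 and Pmaip1, were mixed: of 13 tested, 1 was higher and 2 lower over C57BL/6 in CD4 cells. Cdkn1a, the cell cycle inhibitor p21, averaged 39.5 ± 9.85 CPM in CD4 cells of zinc-fed pMT-10 mice, against 3.08 ± 0.67 without zinc and 5.83 ± 2.0 in C57BL/6 mice. Sesn1, a stress gene under p53 and FOXO, averaged 22.2 ± 8.20 CPM in CD4 cells of zinc-fed pMT-10 mice, against 120 ± 4.97 without zinc and 93.1 ± 11.7 in C57BL/6 mice. In CD8 cells over C57BL/6 edgeR called 0 of 13, with 3 at an unadjusted p under 0.05, 3 called by DESeq2 (1 higher and 2 lower) and 0 by limma-voom. Over pMT-10 without zinc 1 was higher and 3 lower in CD4 cells and 1 higher and 1 lower in CD8 cells.

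Of 15 genes of the cytokine signals that sustain Bcl2 and Mcl1, 4 were higher and 4 lower in CD4 cells and 2 higher and 1 lower in CD8 cells, in the comparison with each control. Il7r, the interleukin-7 receptor chain, was lower in all 4 comparisons and averaged 318 ± 192 CPM in CD4 and 564 ± 52.2 CPM among CD8 libraries of zinc-fed pMT-10 mice, against 916 ± 93.7 and 1090 ± 81.8 without zinc and 1023 ± 109 and 1025 ± 113 in C57BL/6 mice. Its log2 fold change over C57BL/6 was -1.69 ± 0.26 in CD4 and -0.86 ± 0.25 in CD8 cells (edgeR adjusted p of 9.77e-05 and 0.0367). The CD8 call over C57BL/6 was lost without C57BL/6 replicate 1 or 3 or any of the 3 zinc-fed pMT-10 replicates, with adjusted p up to 0.115, and the CD8 call over pMT-10 without zinc was lost without any one of its 6 libraries (adjusted p up to 0.0916). Il15ra, which presents interleukin-15, and Jak3, the kinase of the common gamma chain, were higher in all 4 comparisons, by log2 fold changes of 1.59 to 1.82 and 1.36 to 1.49.

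Of 16 transcription factors known to act on members, 5 were higher and 1 lower in CD4 cells over each control, and 1 over C57BL/6 and 3 over pMT-10 without zinc were higher in CD8 cells. Bcl3, an IkB family coactivator, was higher in all 4 comparisons by log2 fold changes of 1.59 to 1.72, at 261 ± 29.6 CPM in CD4 and 128 ± 8.49 CPM among CD8 libraries of zinc-fed pMT-10 mice, against 79.2 ± 14.2 and 40.8 ± 5.70 without zinc and 84.6 ± 14 and 42.5 ± 2.78 in C57BL/6 mice. Bach2, a repressor that keeps T cells quiescent, was the 1 lower in CD4 cells, at 30.3 ± 19.7 CPM in zinc-fed pMT-10 mice, against 80.1 ± 11.4 without zinc and 108 ± 13 in C57BL/6 mice. Of 14 genes whose products act on the member proteins, 1 was higher and 1 lower in each of the 4 comparisons. The higher one was Pim2, a kinase that phosphorylates BAD, by log2 fold changes of 0.58 to 0.73. The lower one was Pim1, a related kinase, in CD4 cells (edgeR adjusted p of 0.00942 over C57BL/6, and 0.0634 and 0.062 without zinc-fed pMT-10 replicates 1 and 3) and Dynll1, a light chain that binds BIM and BMF, in CD8 cells. The median log2 fold changes of the p53, cytokine, transcription factor and protein regulator lists lay between -0.10 and 0.17 in all 4 comparisons.

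Marker genes of other cell types moved with these results, some up and some down. The 6 T cell genes measured summed to 6650 to 8080 CPM in CD4 cells of zinc-fed pMT-10 mice, against 4270 to 4490 CPM without zinc and 4650 to 5450 CPM in C57BL/6 mice. The 5 NK cell genes summed to 1710 to 2800 CPM in CD4 cells of zinc-fed pMT-10 mice, against 298 to 360 CPM without zinc and 128 to 331 CPM in C57BL/6 mice. In zinc-fed pMT-10 mice this came nearly all from Nkg7 and Eomes. Ncr1, a marker of NK cells, was hardly read in any group. It had no reads in zinc-fed pMT-10 libraries, and in CD4 cells at most 0.382 CPM without zinc and 0.836 CPM in C57BL/6 mice. Of the 4 NK cell genes tested in CD4 cells, edgeR called 2 higher and 2 lower against each control. Klrb1c, which encodes NK1.1, averaged 9.44 ± 5.15 CPM in zinc-fed pMT-10 mice, against 171 ± 11.8 CPM without zinc and 39.9 ± 5.08 CPM in C57BL/6 mice (SD, n = 3 each). Klre1, an NK cell receptor gene, averaged 1.20 ± 0.39 CPM in zinc-fed pMT-10 mice, against 14.5 ± 2.16 CPM without zinc and 5.40 ± 2.11 CPM in C57BL/6 mice. In CD8 cells the NK cell genes summed to 1310 to 1570 CPM in zinc-fed pMT-10 mice, against 726 to 899 CPM without zinc and 776 to 1000 CPM in C57BL/6 mice. The 5 monocyte genes in CD4 cells summed to 154 to 192 CPM in zinc-fed pMT-10 mice, against 67.2 to 102 CPM without zinc and 53.2 to 73.8 CPM in C57BL/6 mice, nearly all from Ccr2, with Csf1r at 0.524 CPM or less. The 4 B cell genes in CD4 cells summed to 3.97 to 12.7 CPM in zinc-fed pMT-10 mice, against 18.6 to 27.8 CPM without zinc and 21.2 to 22.4 CPM in C57BL/6 mice, nearly all from Cd79b, with Pax5 at 0. Cd79b was the 1 of them tested and was called lower by edgeR against both controls, by log2 fold changes of -1.64 over C57BL/6 and -1.81 over pMT-10 without zinc. The 4 platelet genes summed to 156 CPM in replicate 3 of the zinc-fed pMT-10 CD4 libraries and to 0.443 and 1.24 CPM in the other two. Without that replicate Bcl2 and Bcl2l1 kept their calls in CD4 cells against both controls, as did Bak1. The NK cell, monocyte and B cell sums stood apart from the controls in all 3 of these libraries, so leaving out 1 has no bearing on them. The part of the marker genes in the results was not tested, and in bulk RNA fewer cells of one kind and less RNA per cell cannot be told apart.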

How the data were processed

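Raw read counts per gene (unit: counts) from 18 libraries of an Ion AmpliSeq mouse transcriptome panel were deposited by the authors in one table per sequencing chip. The build is mm10, per the submitters' processing notes; the aligner and counter were not stated in the labels or files used. Libraries were grouped by the labels into 6 groups of 3. The members and all gene lists were chosen with earlier results of these data known.

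Genes were kept by filterByExpr with a minimum count of 10, which left 11316, and counts were scaled by TMM. A model with 6 group means over all 18 libraries was fitted and contrasts tested with edgeR 4.0.16 (robust quasi-likelihood test, R 4.3.3), with Benjamini-Hochberg adjustment over all genes and a threshold of 0.05. The standard error is the log2 fold change divided by the square root of F. Interactions were the CD8 minus the CD4 difference. All 10 members are named; of each other list at most the 3 called genes with the largest absolute log2 fold change in a comparison are named, and 1 gene that this rule names is not reported here. The 3 genes with the highest Pearson's r were named for members with calls of one sign over each control, within each cell type; r over all 18 libraries, which fall into clusters, is not given. Log2 CPM for likeness and balance used a prior count of 2. The fit was tested on simulated data. Alternatives were DESeq2 1.42.0, limma 3.58.1 (voom), DESeq2 size factors, library size only, no filter, fewer libraries in the fit and leaving out each library. Figures were drawn with matplotlib 3.10.9. Counting error sets a floor to precision, the spread between the 3 libraries of a group adds to it, and low genes rest on few reads.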

Additional observations from a re-analysis of the deposited data

Results flagged for a closer look

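The zinc-fed pMT-10 difference was itself tested between CD8 and CD4 cells (log2, CD8 minus CD4). Only members and the called list genes with the largest absolute log2 fold changes were looked up. Those list genes were picked by calls in these same libraries. The genes named here had an edgeR adjusted p under 0.05, as had 5.49% of all genes over C57BL/6 and 3.78% over pMT-10 without zinc. The share among the genes looked up was not counted. Over C57BL/6 mice the difference was 1.10 for Bcl2 (adjusted p = 0.0469), -0.83 for Bcl2l13 (0.0253) and -0.96 for Tnfrsf1a, a receptor of TNF (0.0469). In the same comparison it was 1.5 for Sesn1 (0.00323), 0.91 for Mdm4, an inhibitor of p53 (0.0284), and 1.79 for Bach2 (0.0109). It was 1.35 for Pim1 (0.0116), -0.85 for Dynll1 (0.0139) and -1.60 for Egr1, an immediate early transcription factor (0.0145).

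Over pMT-10 mice without zinc the difference was -0.81 for Apaf1 (0.0497), 1.17 for Sesn1 (0.0198) and 1.27 for Pim1 (0.0205). It was -1.01 for Dynll1 (0.00581) and -1.78 for Egr1 (0.0109) by edgeR. Both comparisons share the zinc-fed pMT-10 libraries.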

How the results depend on the processing

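No paired analysis was possible because the labels pair no libraries across groups. Over 248 alternatives to the 18 member calls, 0 changed sign and 33 lost the call; over 1201 alternatives to the 81 member values not called, 73 changed sign and 13 were called. Bcl2 and Bcl2l1 in CD4 cells against both controls, Bak1 in CD4 cells over pMT-10 without zinc, and Bcl2l1 in CD8 cells over C57BL/6 held in all 14 alternatives each. For the called list genes with the largest absolute log2 fold changes, 89 of 966 alternatives lost the call and 0 changed sign. The number called in a list moved to or from 0, or beyond a set factor, in 112 of 784 alternatives.

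The number of members called in CD8 cells over C57BL/6 was 2 in DESeq2 and 1 to 2 on leaving out a library; over pMT-10 without zinc it was 2 in DESeq2, 0 with CD8 libraries alone and 0 to 1 on leaving out a library. Between CD8 and CD4 cells of C57BL/6 mice it was 1 with those groups alone and 1 to 2 on leaving out a library. For the interaction over C57BL/6 it was 2 with no filter, 0 with those groups alone and 0 to 1 on leaving out a library. For that over pMT-10 without zinc it was 1 by library size only, 2 with no filter, 1 in DESeq2 and 0 to 1 on leaving out a library. The Bcl2l1 interaction over C57BL/6, 0.02, ran from -0.21 to 0.28 on leaving out a library, without a call. The causes were not tested.

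Of all genes, 2115 were called in CD4 cells over C57BL/6, and 1361 without zinc-fed pMT-10 replicate 1; over pMT-10 without zinc these were 2125 and 1386. In CD8 cells over C57BL/6 there were 997, and 577 with those groups alone, 607 with CD8 libraries alone and 596 without C57BL/6 replicate 3. Over pMT-10 without zinc there were 876, against 578, 559 and, without its replicate 3, 568. Between controls there were 16 in CD4 and 11 in CD8 cells, against 83 and 107 with no filter and 33 and 42 in DESeq2. The interactions had 621 and 428, against 1055 and 847 with no filter and 1030 and 799 in DESeq2. With those groups alone the first was 385. Leaving out 1 library gave as few as 7 between the CD4 controls (without pMT-10 without zinc replicate 1 or 2), and as few as 264 and 139 in the interactions (both without zinc-fed pMT-10 CD4 replicate 1), with 697 in the second without CD4 replicate 2 of that group. Library size alone moved the median log2 fold change of CD4 cells to -0.16 over C57BL/6 (831 higher and 1448 lower, against 1051 and 1064) and -0.20 over pMT-10 without zinc (770 and 1688, against 1061 and 1064). It moved the interactions' medians to 0.21 (648 higher and 120 lower, against 386 and 235) and 0.22 (537 and 76, against 276 and 152). Between CD8 and CD4 cells of zinc-fed pMT-10 mice it gave 1845 higher and 1354 lower, against 1512 and 1666.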
